A study of Mus musculus with 16 samples.

Results

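The miRNA cluster of the host gene Mir17hg, which runs from miR-17 to miR-92a, and its paralogous clusters were followed as 10 mature microRNAs (miRNAs), which were chosen by name: mmu-miR-17-5p, mmu-miR-18a-5p, mmu-miR-19a-3p, mmu-miR-19b-3p, mmu-miR-20a-5p and mmu-miR-92a-3p of the Mir17hg cluster, mmu-miR-106b-5p, mmu-miR-93-5p and mmu-miR-25-3p of the miR-106b-25 cluster, and mmu-miR-92b-3p. The mouse prefix mmu is left out from here on. They are 10 of the 18488 non-coding RNA features, and of the 1241 mature miRNAs, listed for the brain of 16 mice. All 10 were listed, and 7 had a mean of at least 5 normalized counts over the 16 libraries and were tested. The 3 that fell below this level were miR-18a-5p, miR-19a-3p and miR-19b-3p.

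Small RNA of the prefrontal cortex was sequenced, with 1 mouse per library, in 8 PS19 mice and 8 wild-type (WT) mice. The PS19 mice were heterozygous (PS19+/-) for a transgene of mutant human tau driven by the mouse prion protein promoter, and the WT mice were littermates without it. Both groups were on the same mixed B6;C3 background, were under a year of age, held as many males as females, and were perfused before the cortex was taken. The comparison of PS19 with WT asks how the levels of these miRNAs differ in a cortex with tau pathology.

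A miRNA is cut as a mature strand from the 5p or the 3p arm of a hairpin precursor, and its seed, bases 2 to 8, selects the messenger RNAs that it represses. The hairpins of the Mir17hg cluster are cut from 1 primary transcript, which is known for driving cell proliferation and survival, in tumours and in neural progenitors, while the miR-106b-25 cluster lies in a gene of the replication machinery and has been tied to the proliferation of neural stem cells. The miR-17 family represses the cell cycle inhibitor Cdkn1a, and the miR-92 family represses the pro-apoptotic gene Bcl2l11.

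The mature sequences group the members by seed, which is shown in capitals (RefSeq, GRCm38.p6, 5′ to 3′). All 10 members matched a RefSeq sequence. The miR-92 family shares the seed AUUGCAC.
miR-92a-3p: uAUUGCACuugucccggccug
miR-25-3p: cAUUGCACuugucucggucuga
miR-92b-3p: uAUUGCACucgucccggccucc
The miR-17 family shares the seed AAAGUGC.
miR-93-5p: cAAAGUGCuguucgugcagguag
miR-20a-5p: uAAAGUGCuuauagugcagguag
miR-17-5p: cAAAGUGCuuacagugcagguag
miR-106b-5p: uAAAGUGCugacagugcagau
The miR-19 family (seed GUGCAAA) and miR-18a-5p (seed AAGGUGC) complete the set.
miR-19a-3p: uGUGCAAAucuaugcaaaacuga
miR-19b-3p: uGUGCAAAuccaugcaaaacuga
miR-18a-5p: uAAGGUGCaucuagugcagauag
Within a family the members differed outside the seed. Counted from 1 at the 5′ end, with the base of the first named miRNA written first, miR-92a-3p and miR-92b-3p differed at U10C and G21C over 21 bases. By the same count miR-92a-3p and miR-25-3p differed at U1C, C14U and C18U, miR-17-5p and miR-20a-5p at C1U and C12U, and miR-19a-3p and miR-19b-3p at U11C.

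On GRCm38 the 6 hairpins of the Mir17hg cluster span 836 bases of the plus strand at chr14:115043671-115044506, in an exon of the long non-coding RNA gene Mir17hg. The 3 hairpins of the miR-106b-25 cluster span 498 bases of the minus strand at chr5:138165321-138165818, inside the protein-coding gene Mcm7. The miR-106b hairpin is intronic in the Mcm7 transcript models that span it, and those of miR-93 and miR-25 are intronic in 2 models and exonic in 1. The miR-92b hairpin lies at chr3:89227116-89227198 on the minus strand. A further paralogous cluster, miR-106a-363, spans 875 bases of the minus strand at chrX:52741693-52742567. Its hairpins also give miR-19b-3p and miR-92a-3p with the same mature sequence, so the reads of these 2 members cannot be divided between chromosomes 14 and X.

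Values are normalized counts, which are reads divided by a size factor for each library, and a read was worth 0.595 to 1.46 normalized counts. Counts recovered over all listed features summed to 13187096 to 23058568 reads per library. The miRNAs took 15.0% to 32.6% of the signal, lowest in WT replicate 7. The summed neuronal markers (miR-124-3p, miR-128-3p, miR-9-5p and miR-137-3p) ranged from 294008 to 1.02482e+06 normalized counts in PS19 and from 341011 to 951040 in WT. Of 4 red blood cell markers, miR-144-3p and miR-144-5p were near 0 (means of 0.343 and 0.280 normalized counts), miR-451a averaged 15.6 and miR-486a-5p 975.6, and the sum of the 4 was 731 to 1518 in PS19 and 653 to 1411 in WT. The other marker lists also overlapped between genotypes. They included miRNAs of muscle (sums of 2253 to 14631 over all libraries), of liver (132.3 to 653.5) and of the olfactory bulb (34.6 to 3345). The part of other cells in the members' levels was not tested. The first letter of the library code, which the labels do not explain, was G in all 8 PS19 libraries, and among WT libraries it was G in 2, F in 4 and A in 2.

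No difference between PS19 and WT passed the test in any of the 7 tested members. With limma on log2(normalized count + 1) and Benjamini-Hochberg adjustment over 6024 features, 0 of 7 had an adjusted p under 0.05, and 0 of 7 had an unadjusted p under 0.05, where 0% and 4% of all tested features did. DESeq2 also gave 0 of 7 at either level, against 0.249% of all features at the adjusted and 4.7% at the unadjusted threshold, and edgeR 0 of 7, against 0% and 4.4%. Of the 7 members, 3 were higher and 4 lower in PS19 by point value. Their median log2 difference was -0.05, beside -0.02 over all tested features and -0.13 over the 521 tested mature miRNAs. In bulk tissue, fewer cells of a type and less RNA per cell cannot be told apart.

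**Figure D1:**
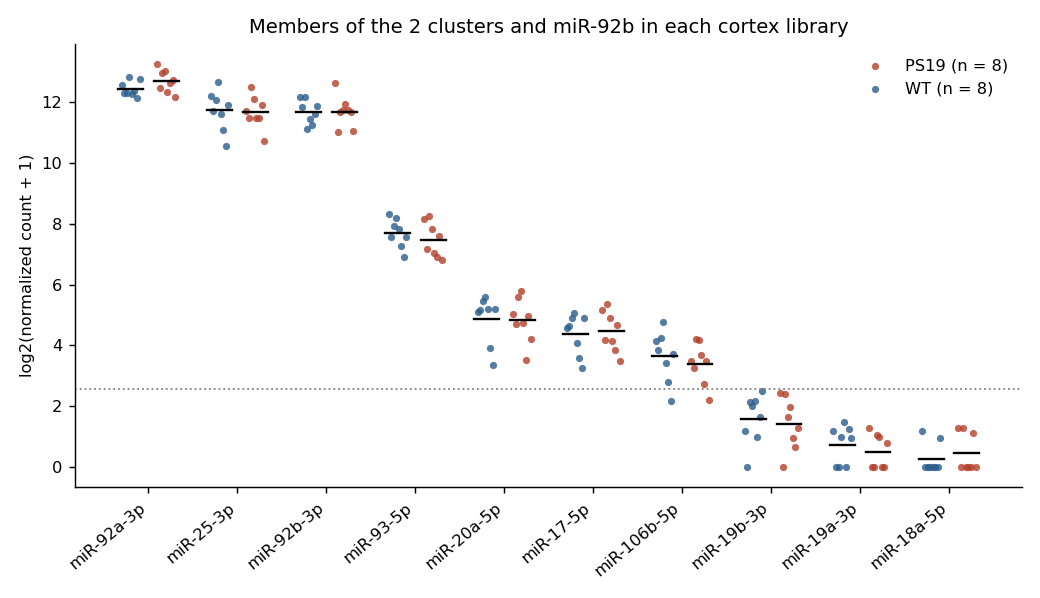
The plot of members by library gives log2(normalized count + 1) of the 10 members in each of the 16 libraries, with WT at the left and PS19 at the right of each pair. Each point is 1 library, each short bar is the group's mean of the log2 values, and the dotted line marks the mean of 5 normalized counts that a tested feature had to reach. The points of the genotypes overlap for every member, and miR-18a-5p, miR-19a-3p and miR-19b-3p lie below the line.

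In the miR-92 family, miR-92a-3p had the largest positive point difference. Its lowest, median and highest normalized counts were 4587, 6561 and 9644 in PS19 and 4470, 5105 and 7258 in WT. The groups overlapped, with 6 of 8 PS19 values higher than the median of WT. The means were 6772 ± 1730 and 5579 ± 1013 (SD, n = 8 each), a log2 difference of 0.26 ± 0.19 (SE, 95% interval -0.13 to 0.65, limma adjusted p = 0.9998). On the linear scale the interval runs from 0.914-fold to 1.57-fold.

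For miR-25-3p, the last miRNA of the miR-106b-25 cluster, the lowest, median and highest values were 1661, 3100 and 5798 normalized counts in PS19 and 1506, 3546 and 6370 in WT. Both extremes of the 16 libraries lay in WT, in replicates 7 and 4. The log2 difference was -0.05 ± 0.28 (SE, 95% interval -0.63 to 0.53, limma adjusted p = 0.9998). The miRNA that is cut from its own locus, miR-92b-3p, had 2051, 3314 and 6291 in PS19 and 2183, 3379 and 4532 in WT. Its medians were nearly level, and its log2 difference was 0.00051 ± 0.23 (SE, 95% interval -0.48 to 0.48, limma adjusted p = 0.9998). The highest of its PS19 values, in replicate 1, stood apart from the next, 3890.

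In the miR-17 family, miR-93-5p of the miR-106b-25 cluster had 109.7, 167.5 and 302.3 normalized counts as its lowest, median and highest values in PS19, and 118.1, 207.0 and 320.3 in WT. Of the 8 PS19 values, 3 exceeded the median of WT. Its log2 difference was -0.23 ± 0.26 (SE, 95% interval -0.77 to 0.32, limma adjusted p = 0.9998). miR-20a-5p ranged over 10.4, 28.0 and 54.4 in PS19 and 9.19, 35.3 and 47.3 in WT, and its log2 difference was -0.05 ± 0.35 (SE, limma adjusted p = 0.9998). The WT range of miR-20a-5p lay nearly inside that of PS19.

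miR-17-5p, which gives the family its name, had 10.2, 20.9 and 40.5 normalized counts in PS19 and 8.49, 23.4 and 32.2 in WT. It was read 181 times in each genotype, with 11 to 41 reads per library. The log2 difference was 0.10 ± 0.32 (SE, limma adjusted p = 0.9998). miR-106b-5p, the least abundant of the tested members, had 3.66, 10.2 and 17.4 in PS19 and 3.54, 12.7 and 26.1 in WT, from 5 to 26 reads per library. In 6 of the 16 libraries it had fewer than 10 reads. Its log2 difference was -0.24 ± 0.35 (SE, 95% interval -0.97 to 0.50, limma adjusted p = 0.9998).

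Several of these point values lay further from 0 among libraries of the same code letter. With the letter as a term, the log2 difference was -0.90 ± 0.53 for miR-106b-5p (SE, 95% interval -2.0 to 0.21), -0.56 ± 0.53 for miR-20a-5p, -0.50 ± 0.43 for miR-25-3p, -0.41 ± 0.43 for miR-93-5p and -0.37 ± 0.46 for miR-17-5p. That of miR-92a-3p was 0.13 and that of miR-92b-3p 0.21. These estimates compare the 8 PS19 libraries with only 2 WT libraries. None passed the threshold (limma adjusted p = 0.9999 for each).

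**Figure D2:**
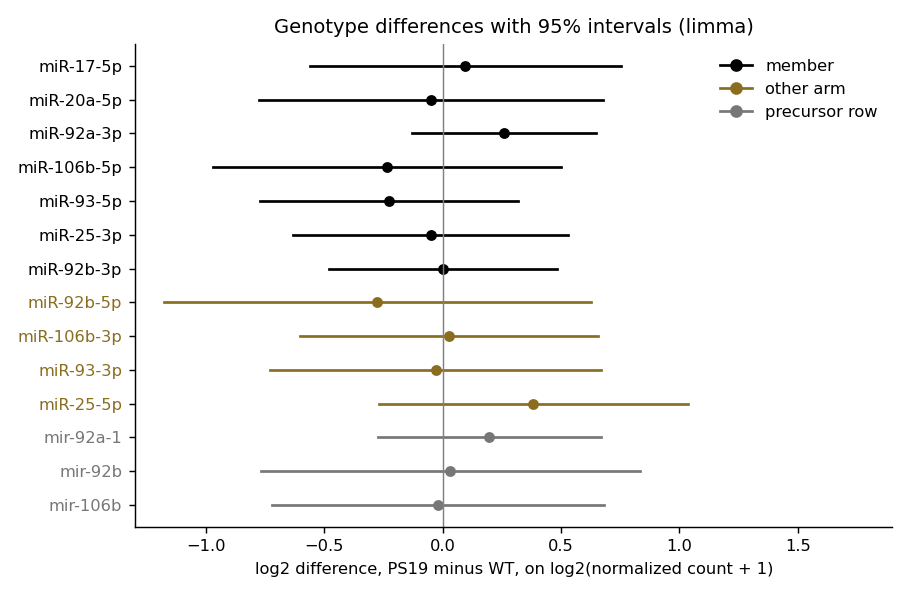
The plot of genotype differences gives the log2 difference, PS19 minus WT, on the log2(normalized count + 1) scale for the 7 tested members, 4 other arms and 3 precursor rows. Points are limma estimates over 8 PS19 and 8 WT libraries and lines are 95% intervals. All 14 intervals include 0, from miR-92b-5p at -0.28 to miR-25-5p at 0.38.

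The 3 low members rested on few reads. miR-19b-3p had 36 reads over the 16 libraries, 0 to 5 in each, and means of 2.10 ± 1.66 normalized counts in PS19 and 2.38 ± 1.56 in WT (SD, n = 8 each). miR-19a-3p had 11 reads, 4 of them in PS19 and 7 in WT. miR-18a-5p had 6 reads, in 3 PS19 and 2 WT libraries. A count of 0 in a library allows up to 3 reads, or 1.78 to 4.37 normalized counts, which covers counting error only. At these read numbers small and moderate genotype differences in the 3 miRNAs were out of reach, and the size that could be seen was not tested. Without the filter, limma gave each of them an adjusted p of 0.9999 over 17088 features, and 0 of the 10 members had an unadjusted p under 0.05, where 3.98% of the features did.

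The members fell into steps by level when each was divided by its length. miR-92a-3p, at 294.1 normalized counts per base, was above miR-25-3p in 16 of 16 libraries, by 1.83-fold between means. The neighbours miR-25-3p (161.1 per base) and miR-92b-3p (155.0) did not differ beyond their spread, since each was the higher in 8 of 16. Below them miR-92b-3p exceeded miR-93-5p 17.7-fold per base, and miR-93-5p exceeded miR-20a-5p 6.5-fold, in 16 of 16 libraries each and with ranges that did not meet.

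Lower in the order, miR-20a-5p was above miR-17-5p in 14 of 16 libraries, and miR-17-5p was above miR-106b-5p in 16 of 16, with overlapping ranges in both cases. miR-106b-5p exceeded miR-19b-3p 5.80-fold per base and was above it in 16 of 16. The last neighbours, miR-19a-3p and miR-18a-5p, could not be ordered, as miR-19a-3p was higher in 6 of 16 libraries and both rested on few reads. Among the 1241 listed mature miRNAs, miR-92a-3p ranked 60 by mean normalized count, miR-25-3p 76 and miR-92b-3p 79, while miR-17-5p ranked 369.

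Reads of the members were therefore mostly reads of the miR-92 seed. The miR-92 family held 98.2% ± 0.353 of the summed normalized counts of the 10 members in PS19 and 97.8% ± 0.391 in WT (SD, n = 8 each). The miR-17 family held 1.77% ± 0.348 and 2.14% ± 0.390. These shares overlapped between genotypes. By locus, the Mir17hg cluster held 49.4% ± 3.70 in PS19 and 44.3% ± 5.47 in WT, the miR-106b-25 cluster 25.9% ± 5.26 and 29.1% ± 6.98, and miR-92b 24.7% ± 5.39 and 26.6% ± 6.31. The cluster shares also overlapped, and all miR-92a-3p and miR-19b-3p reads were counted to the Mir17hg cluster here. The 10 members together took 0.331% ± 0.0855 of the miRNA signal in PS19 and 0.298% ± 0.0682 in WT.

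Hairpins of 1 cluster gave very unequal read counts of mature miRNA. Whether the library preparation captured the different sequences equally well was not tested. Per base, the geometric mean ratio of miR-92a-3p to its cluster mate miR-17-5p was 323.8-fold over the 16 libraries, and to miR-20a-5p it was 238.8-fold. The reads of miR-92a-3p here include any from its hairpin on the X chromosome. That of miR-20a-5p to miR-17-5p was 1.36-fold. In the miR-106b-25 cluster, miR-25-3p exceeded miR-93-5p 18.2-fold per base and miR-106b-5p 304.6-fold. None of these ratios separated the genotypes.

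**Figure D3:**
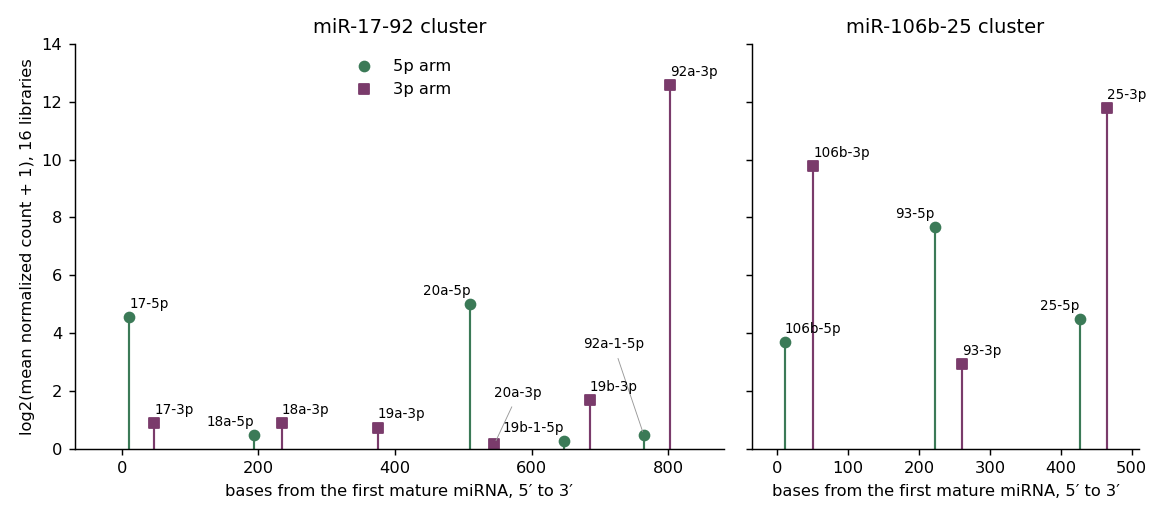
The map of the Mir17hg cluster, which runs from miR-17 to miR-92a, at the left and the miR-106b-25 cluster at the right places each listed mature miRNA at its distance in bases from the first mature miRNA of its cluster, in the direction of transcription, and gives log2(mean normalized count + 1) over the 16 libraries, not divided by length, as its height. Circles are 5p arms and squares are 3p arms. miR-92a-3p and miR-25-3p, the last miRNA of each cluster, stand highest, and miR-106b-3p stands above miR-106b-5p.

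The other arms of the same hairpins showed which strand was read. For miR-106b the arm among the members was the minor one by reads.
miR-106b-3p: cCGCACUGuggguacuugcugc
miR-106b-3p averaged 875.1 normalized counts, and per base its log2 ratio to miR-106b-5p was 6.35 ± 0.483 in PS19 and 6.07 ± 0.489 in WT (SD, n = 8 each), a geometric mean of 74.2-fold. For miR-25, miR-93 and miR-92b the member was the major arm by reads. Whether both arms were captured equally well was not tested. Per base, miR-25-3p exceeded miR-25-5p 171.7-fold, miR-93-5p exceeded miR-93-3p 30.6-fold and miR-92b-3p exceeded miR-92b-5p 21.5-fold. The miR-18a hairpin had few reads on either arm, 15 for miR-18a-3p and 6 for the member miR-18a-5p. Each of the arm ratios given overlapped between genotypes.

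A list of 39 related names, made up of other arms, precursors, the X-linked cluster and other miRNAs of the miR-92 seed, had 26 listed rows, of which 7 were tested. In limma 0 of these 7 passed at an adjusted or at an unadjusted p under 0.05. By point value 4 were higher and 3 lower in PS19. Their log2 differences had a median of 0.03. The largest was miR-25-5p, with 11.4, 17.6 and 46.6 normalized counts in PS19 and 9.0, 17.5 and 35.9 in WT as its lowest, median and highest values, and a log2 difference of 0.38 ± 0.31 (SE, limma adjusted p = 0.9998). miR-106b-3p had a log2 difference of 0.03 ± 0.30 (limma adjusted p = 0.9998).

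The hairpins on both chromosomes that give miR-92a-3p have precursor rows of their own. The row of mir-92a-1, the hairpin on chromosome 14, averaged 115.8 normalized counts, and that of mir-92a-2, the hairpin on chromosome X, averaged 2.58, neither divided by length. The mir-92a-1 row had a log2 difference of 0.20 ± 0.23 between PS19 and WT (SE, limma adjusted p = 0.9998), with overlapping groups. The sources used here do not state which reads were given to a precursor row rather than to its mature arm.

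Members of the X-linked cluster that can be told from the chromosome 14 paralogs by sequence had few reads.
miR-106a-5p: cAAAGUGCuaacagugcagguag
miR-20b-5p: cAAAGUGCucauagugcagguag
miR-18b-5p: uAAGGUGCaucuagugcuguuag
With miR-17-5p as the first named, miR-106a-5p differs at U10A, and miR-20b-5p at U10C and C12U. With miR-18a-5p as the first named, miR-18b-5p differs at A18U and A20U. Over the 16 libraries miR-106a-5p had 6 reads, miR-18b-5p 1, miR-20b-5p 26, miR-363-3p 25 and miR-363-5p 23, beside 362 for miR-17-5p. The 5 listed names of this cluster, of 8 sought, all stayed below the tested level.

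Across the 16 libraries, the 21 pairs of the 7 tested members had Pearson r of 0.23 to 0.95 on log2(normalized count + 1), with a median of 0.75. Over all pairs of the 521 tested mature miRNAs the median was 0.49. After scaling to the miRNA total the medians were 0.41 and 0.05. The highest values lay among 5 members, which were picked after the correlations were seen. Among miR-25-3p, miR-93-5p, miR-20a-5p, miR-17-5p and miR-106b-5p, the 10 pairs had r of 0.80 to 0.95, with a median of 0.86. Within a library all members share its size factor and its miRNA share, and r of each member with the miRNA share was 0.80 to 0.88 for these 5. After scaling to the miRNA total the 10 pairs had r of 0.35 to 0.77, with a median of 0.62.

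miR-92a-3p and miR-92b-3p followed this pattern less closely by value. The 5 pairs of miR-92a-3p with those members had r of 0.49 to 0.75, and the 6 pairs of miR-92b-3p had r of 0.23 to 0.45. After scaling to the miRNA total these became -0.13 to 0.43 and -0.34 to 0.55. The highest of the scaled values for miR-92b-3p was its pair with miR-92a-3p. r of miR-92b-3p with the miRNA share was 0.46, the lowest of the 7.

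**Figure D4:**
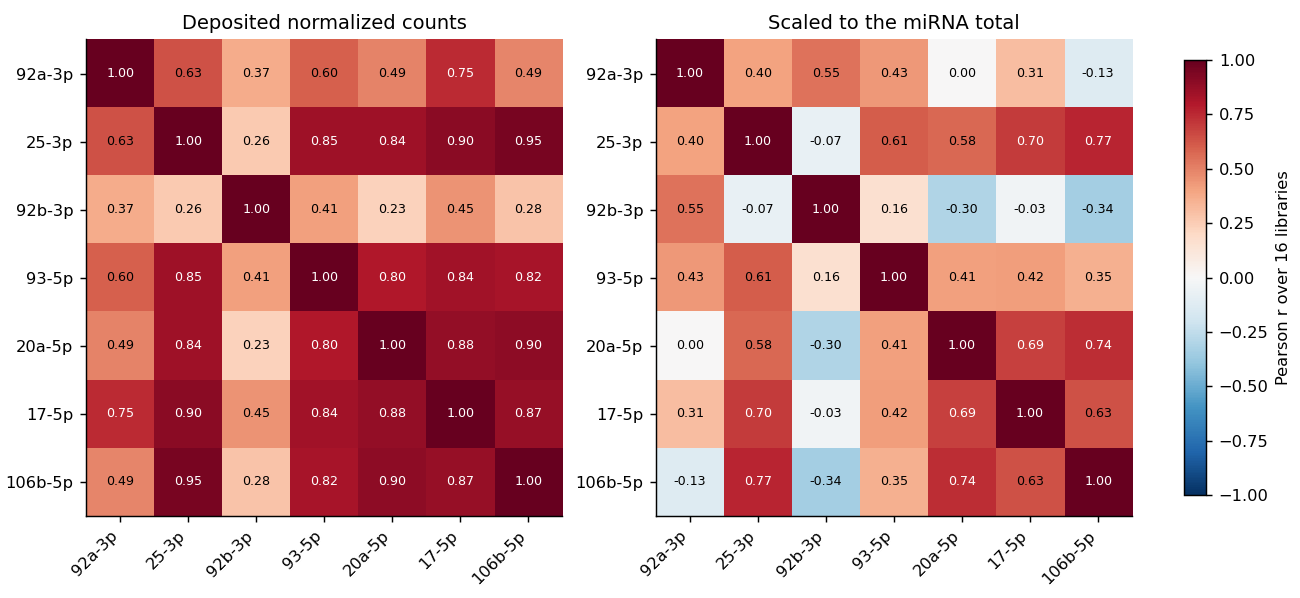
The matrices of co-variation give Pearson r over the 16 libraries for each pair of the 7 tested members, from log2(normalized count + 1) at the left and after scaling each library to its miRNA total at the right. Red is positive and blue is negative. The block of miR-25-3p, miR-93-5p, miR-20a-5p, miR-17-5p and miR-106b-5p runs from 0.80 to 0.95 at the left and from 0.35 to 0.77 at the right, and the miR-92b-3p row is paler.

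WT replicate 7, which had the lowest miRNA share, was the lowest of the 16 libraries for 5 of the 7 tested members, and for 0 of 7 after scaling to the miRNA total. After that scaling it still ranked 2 from the lowest for miR-20a-5p, 3 for miR-106b-5p and miR-25-3p and 4 for miR-17-5p, but 12 for miR-93-5p and 15 for miR-92a-3p, and it was the highest of the 16 for miR-92b-3p. On the deposited normalized counts the spread within a genotype was smallest for miR-92a-3p, with an SD of 0.32 on the log2 scale, and reached 0.76 for miR-20a-5p. After scaling to the miRNA total it was 0.43 for miR-92a-3p and smallest for miR-93-5p, at 0.30. Before scaling, the median over the 521 tested mature miRNAs was 0.71.

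The mature miRNAs outside both lists whose log2 values followed the mean of the 10 members most closely, among 252 with a mean of at least 100 normalized counts, were miR-872-5p (r = 0.94 over 16 libraries), miR-191-5p (0.93), miR-125b-2-3p (0.93), miR-26b-5p (0.93) and miR-192-5p (0.92). The median r of the 252 was 0.72. After scaling to the miRNA total the 5 had r of 0.64, 0.76, 0.81, 0.65 and 0.56, beside a median of 0.15.

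The members' levels also tended to rise with G + C, though not in strict order. The G + C share was 57.1% in miR-92a-3p, 63.6% in miR-92b-3p and 50.0% in miR-25-3p. In miR-19a-3p, miR-19b-3p and miR-18a-5p it was 34.8% to 43.5%. In the miR-17 family it was 52.2% in miR-93-5p, 39.1% in miR-20a-5p, 47.8% in miR-17-5p and 42.9% in miR-106b-5p. Over the 10 members, which share libraries and often a precursor transcript, Spearman's rho of G + C with the mean level was 0.75. Over the 1069 mature miRNAs matched to RefSeq it was -0.20, and over the 458 of them with a mean of at least 5 it was -0.11. The sign over the members was opposite to that over all matched mature miRNAs.

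**Figure D5:**
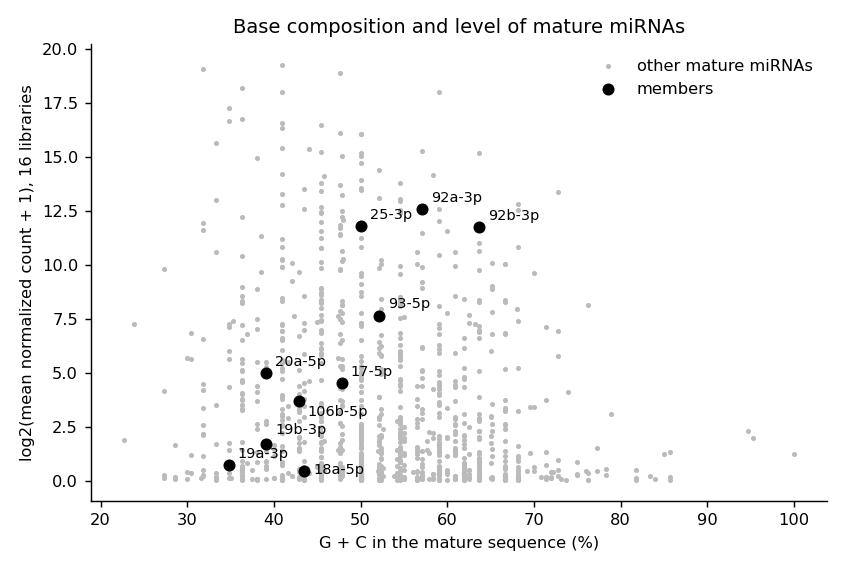
The plot of base composition gives the percent G + C of each mature sequence against log2(mean normalized count + 1) over the 16 libraries, for 1069 mature miRNAs in grey with the 10 members in black. The members tend to climb from miR-19a-3p at 34.8% to miR-92a-3p at 57.1% and miR-92b-3p at 63.6%, though not steadily. miR-18a-5p is the lowest member at 43.5%, and miR-93-5p at 52.2% lies below miR-25-3p at 50.0%. The grey points show no such climb.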

How the data were processed

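The authors prepared small RNA libraries from prefrontal cortex with a NEBNext kit, sequenced them single-end and counted them with COMPSRA, and their submitters' processing notes name STAR 2.5.3a, DESeq2 1.42.1 and the mm10 build. The deposited table holds normalized signal: counts per feature divided by 1 size factor per library. Dividing by the smallest step gave 100% whole reads, within 1e-06 of a read, in all 16 libraries. In WT replicates 4 and 6 that step was close to 1 (1.0056 and 1.00053 normalized counts), so recovery rests on weaker evidence there. The table also holds the authors' own comparison (means, log2 fold changes, standard errors, statistics, p-values and adjusted p-values), which was not used. Columns of other libraries numbered 0.

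Groups came from the genotype labels, 8 libraries each. The main test was limma 3.58.1 in R 4.3.3 (lmFit, eBayes with trend, genotype as the only term) on log2(value + 1) for the 6024 features whose mean over 16 libraries reached 5, with Benjamini-Hochberg adjustment over all of them. It was tested on simulated data. The pseudocount of 1 understates fold changes of low features. Alternatives were other scalings, filters and pseudocounts, DESeq2 1.42.0 and edgeR 4.0.16 on recovered reads, the letter of the library code, array weights, a replicate block and each library left out. Named miRNAs were all members, all related rows and the 5 miRNAs most like the members, beside markers from the cell type lists. The members and lists were chosen with earlier results of these data known. RefSeq sequences matched 1069 of 1241 mature miRNA rows, and hairpins were placed on GENCODE gene models of GRCm38. Recovered reads are not independent molecules, so floors cover counting error only.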

Additional observations from a re-analysis of the deposited data

Results flagged for a closer look

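In 3 of 34 group values examined, the highest library stood far from the rest of its 8. This was judged on normalized counts, not on the log2 scale of the tests. Chance alone gives about 1.7 for independent, normally distributed values. Whether these values are so distributed was not tested, and the rows share libraries. miR-92b-3p in PS19 replicate 1 was at 6291 normalized counts, beside 3890 in the next library. The mir-92a-1 precursor row in the same library was at 215.4, beside 134.7. miR-25-5p in WT replicate 1 was at 35.9, beside 19.1.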

How the results depend on the processing

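Over 28 alternatives, 195 member fits gave 0 with an unadjusted p under 0.05, and the lowest adjusted p, from limma, was 0.827. In 24 of them the point value changed sign. The count of all features called was 15 with DESeq2 and 0 with limma. Scaled to the miRNA total, the log2 difference was 0.0083 for miR-20a-5p and 0.0036 for miR-25-3p. With a term for the library code letter, and in the G libraries only (chosen after seeing the data), that of miR-17-5p was -0.37. With array weights that of miR-92b-3p was -0.063. Leaving out 1 library at a time gave -0.066 to 0.24 for miR-17-5p, -0.27 to 0.14 for miR-20a-5p, -0.22 to 0.086 for miR-25-3p, -0.13 to 0.10 for miR-92b-3p, -0.44 (without WT replicate 7) to -0.066 (without PS19 replicate 8) for miR-106b-5p and, without the same libraries, -0.34 to -0.13 for miR-93-5p. The median over the members, -0.05 as reported, was then -0.22 to 0.086, and it was -0.41 with the letter term and in the G libraries, while the members called stayed at 0 in all of these. Features with an unadjusted p under 0.05 numbered 241 in the fit reported, 123 scaled to the miRNA total, 680 without a filter, 136 at a mean of at least 20, 124 with the letter, 121 in G libraries and 418 with array weights.

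The replicate numbers are shared by the genotypes. Same-numbered libraries correlated at r of 0.0446 to 0.456, above 0.1 in 6 of 8 pairs, and 2 of 8 correlated best with their own number, so the numbers were not taken as pairs. With the replicate block, 0 members and 0 features were called, and 419 features had an unadjusted p under 0.05. Depth limits the 3 low members most.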
